A study of Mus musculus with 17 samples.

Results

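The heat-shock chaperones considered here are 10 genes that heat-shock factor 1 (HSF1) is known to act on: Hspa1a, Hspa1b, Hsph1, Dnajb1, Hsp90aa1, Hspa8, Hspb1, Cryab, Hspd1 and Hspe1. They were taken by gene symbol from a table of 36172 rows, and all 10 were found, each in 1 row. Transcripts were counted by RNA sequencing in extensor digitorum longus (EDL), a toe-extending muscle of the shin rich in fast fibres, of 17 aged mice. Of these, 7 had received a vector for Hand2, a transcription factor of sympathetic neurons (4 females, 3 males; 4 animals of 22 and 3 of 23 months), and 10 an empty vector (5 females, 5 males; 3 of 22 and 7 of 23 months). No untreated or young animals are among them, so every animal carried a vector. The strain of the mice, the promoter of the vector, the cells it reached and the age at which it was given were not stated in the labels. A library stands for a single animal, and p-values therefore measure the spread from mouse to mouse.

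Chaperones of this kind bind unfolded or newly made proteins and keep them from clumping. Under heat, oxidation or other protein damage, HSF1 is released from chaperones, forms trimers and binds heat-shock elements, which are inverted repeats of a GAA unit, in front of these genes. Some members are nearly silent at rest and strongly inducible, whereas others are made all the time, and muscle uses them around the contractile filaments and in mitochondria. The inducible pair Hspa1a and Hspa1b encode almost the same HSP70 protein, and Hspa8 encodes the constitutive one. Dnajb1 (HSP40) hands clients to HSP70 and Hsph1 (HSP110) helps it release nucleotide. Hsp90aa1 encodes the inducible cytosolic HSP90. Hspb1 and Cryab are small heat-shock proteins that bind cytoskeletal and sarcomere proteins, and Hspd1 and Hspe1 form the barrel and the lid of the mitochondrial chaperonin.

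The promoters are shown first because those of neighbouring members are either nearly identical copies (Hspa1a and Hspa1b) or overlap (Hspd1 and Hspe1). Hspa1a (Entrez gene 193740, chr17:34969359-34972156, minus strand, mm10) and Hspa1b (15511, chr17:34956429-34959238, minus strand) lie 10120 bases apart. The 150 bases before the start of each gene, read on the strand of the gene, differ at 1 position. RefSeq promoter entries (GRCm38.p6) were found for 7 of the 10 members. Capitals mark a 2-unit heat-shock element, GAANNTTC or TTCNNGAA, where N is any base; each of these motifs is its own reverse complement, so both strands were covered. It starts 104 bases before both genes.
Hspa1a promoter, chr17:34972157-34972306, minus strand: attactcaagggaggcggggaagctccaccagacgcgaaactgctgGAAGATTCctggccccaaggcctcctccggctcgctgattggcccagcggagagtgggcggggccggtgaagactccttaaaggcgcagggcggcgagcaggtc
Hspa1b promoter, chr17:34959239-34959388, minus strand: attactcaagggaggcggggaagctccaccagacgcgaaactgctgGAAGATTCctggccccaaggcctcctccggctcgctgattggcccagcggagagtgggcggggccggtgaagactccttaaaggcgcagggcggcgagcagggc

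Hspd1 (15510, chr1:55077834-55087932, minus strand) and Hspe1 (15528, chr1:55088148-55091317, plus strand) run away from each other with 215 bases between them. RefSeq lists 2 starts for Hspd1, and the 250 bases before the other one hold no motif. From the start used here the genes share 1 element, which is read in opposite directions in the sequences below. It holds 3 overlapping 2-unit motifs, and these form 2 overlapping runs of 3 units.
Hspd1 promoter, chr1:55087933-55088082, minus strand: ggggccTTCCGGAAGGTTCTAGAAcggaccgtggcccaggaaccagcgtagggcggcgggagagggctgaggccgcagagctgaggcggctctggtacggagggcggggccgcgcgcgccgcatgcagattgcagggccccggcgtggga
Hspe1 promoter, chr1:55087998-55088147, plus strand: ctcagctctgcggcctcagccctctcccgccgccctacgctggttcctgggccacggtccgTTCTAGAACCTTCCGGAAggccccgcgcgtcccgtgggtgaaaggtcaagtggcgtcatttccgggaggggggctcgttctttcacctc

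Hspb1 (15507, chr5:135887919-135889563, plus strand) has 2 separate motifs, and Hsph1 (15505, chr5:149616845-149636315, minus strand) has 1. They are shown because single animals, described below, differed in which of these genes was high. A link between the motifs and those levels was not tested.
Hspb1 promoter, chr5:135887769-135887918, plus strand: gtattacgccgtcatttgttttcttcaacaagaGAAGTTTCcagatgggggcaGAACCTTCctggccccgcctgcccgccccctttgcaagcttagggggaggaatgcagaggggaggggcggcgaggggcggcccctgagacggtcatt
Hsph1 promoter, chr5:149636316-149636465, minus strand: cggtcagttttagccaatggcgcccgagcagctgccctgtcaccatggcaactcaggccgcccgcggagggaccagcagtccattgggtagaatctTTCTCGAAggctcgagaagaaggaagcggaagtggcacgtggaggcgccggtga

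For Dnajb1 (81489, chr8:83608175-83611903, plus strand) the 250 bases before its 2 listed starts hold no such motif. Over all 32851 promoter entries, 12.8% hold at least 1 two-unit motif in their 250 bases before the start and 0.466% hold a run of 3 units. A match is a description of the letters and not evidence of binding, and a missing match says nothing about HSF1 at that gene. Hsp90aa1 (15519, chr12:110691036-110696395, minus strand), Hspa8 (15481, chr9:40801273-40805199, plus strand) and Cryab (12955, chr9:50752758-50756633, plus strand) are given without a promoter.

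Libraries held 19181208 to 30942818 estimated counts with a median of 26091234, and the 10 chaperones took 0.268% to 0.453% of them. Values below are CPM, counts relative to library size, scaled by the trimmed mean of M values (TMM). A count of 3 equals 0.097 to 0.156 CPM, and every member had at least 101 counts in every animal. The Hand2 transcript was 1.02 to 26.3 CPM in the Hand2 group (median 2.04) and 0.071 to 0.920 CPM in the empty-vector group (median 0.382). The groups did not overlap, as in 0.0215% of tested genes, but the lowest Hand2 animal was close to the highest empty-vector animal. Markers of muscle fibres (Acta1, Ckm, Myh4 and 5 others) summed to 70440 to 91080 CPM with Hand2 and 71250 to 85950 CPM with the empty vector. In whole muscle, fewer cells of a type and less RNA per cell cannot be told apart.

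Per kilobase of exon, which allows levels of different genes to be compared, Cryab and Hspa8 led. Cryab had a median of 623 CPM per kb in Hand2 animals and 708 CPM per kb in empty-vector animals, and Hspa8 had 600 CPM per kb in Hand2 animals and 622 CPM per kb in empty-vector animals. The ranges of these 2 genes overlapped, and over all 17 animals Cryab averaged 686 and Hspa8 634 CPM per kb. Hspb1 (median over 17 animals 201 CPM per kb), Hspd1 (128) and Hspe1 (92.3) followed, then Hsp90aa1 (24.99) and Hsph1 (23.1), whose ranges overlapped. Hspa1b (3.15), Dnajb1 (2.93) and Hspa1a (2.46) were lowest in the median animal and also overlapped. The constitutive Hspa8 exceeded the summed CPM of the inducible Hspa1 pair 113-fold in the median Hand2 animal and 74.1-fold in the median empty-vector animal, but 5.64-fold in the empty-vector animal with the smallest ratio.

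The question of the study's main comparison was whether the Hand2 vector changed muscle transcripts. All 10 chaperones had lower estimates with Hand2, and none passed the test. The largest estimated differences were those of Hspa1b and Hspa1a, at 0.256 and 0.315 times the empty-vector level in the fit, and they came with wide intervals because a few empty-vector animals were very high. In edgeR's quasi-likelihood test with sex as a term, 0 of 10 members and 0 of 13965 genes (0.0%) had a Benjamini-Hochberg adjusted p under 0.05. Without adjustment, 5 of 10 members had a p under 0.05 and a lower estimate, against 2.56% of all genes, or 5.05% in either direction. That count was 3 in animals of 23 months alone and 4 to 7 under the other settings. No member had groups without overlap over all animals, as 0.0215% of genes did. The median log2 fold change of the 10 was -0.31, against -0.004 for all genes, and 51.7% of all genes lay below 0. The members share animals and regulators, so they are not 10 separate observations. No member was called under any of the 32 other settings tried, DESeq2 among them, which called 1 gene in all.

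Hspa1b had 4.92, 6.5 and 9.56 CPM in the lowest, median and highest Hand2 animal, against 5.83, 12.0 and 188.5 CPM in the empty-vector animals. The Hand2 values lay closer together than the empty-vector ones, and 6 of 10 empty-vector animals were above every Hand2 animal. Of these, 3 empty-vector females (188.5, 47.0 and 35.05 CPM in replicates 4, 2 and 3) stood well apart from the rest. The log2 fold change was -1.96 ± 0.66 (SE; edgeR adjusted p = 0.921). Hspa1a ran in parallel, with 4.16, 5.59 and 9.33 CPM in Hand2 animals against 4.05, 8.02 and 116 CPM in empty-vector animals. Here 4 of 10 empty-vector animals exceeded every Hand2 animal, and the log2 fold change was -1.67 ± 0.60 (SE; edgeR adjusted p = 0.921). The same 3 empty-vector females were highest for both copies.

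The 2 copies are hard to separate by short reads: 82.3% of all 50-base stretches of the Hspa1a coding sequence also occur in Hspa1b, while none occur in Hspa8. How shared reads were divided in the counting was not stated in the labels. Hspa1a took 47.3% ± 3.6 of the pair's CPM in Hand2 animals and 43.0% ± 3.3 in empty-vector animals (SD, n = 7 and 10). Summed into 1 gene, the pair had 9.08, 13.1 and 18.9 CPM in the lowest, median and highest Hand2 animal, against 9.88, 19.99 and 304 CPM in empty-vector animals. Its log2 fold change was -1.80 ± 0.63 (SE; edgeR adjusted p = 0.921). The estimate for each copy was smaller when empty-vector replicate 4 was left out. Without that animal the log2 fold change was -1.28 ± 0.39 for Hspa1b and -1.12 ± 0.41 for Hspa1a, with an edgeR adjusted p = 0.891 for both.

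**Figure D1:**
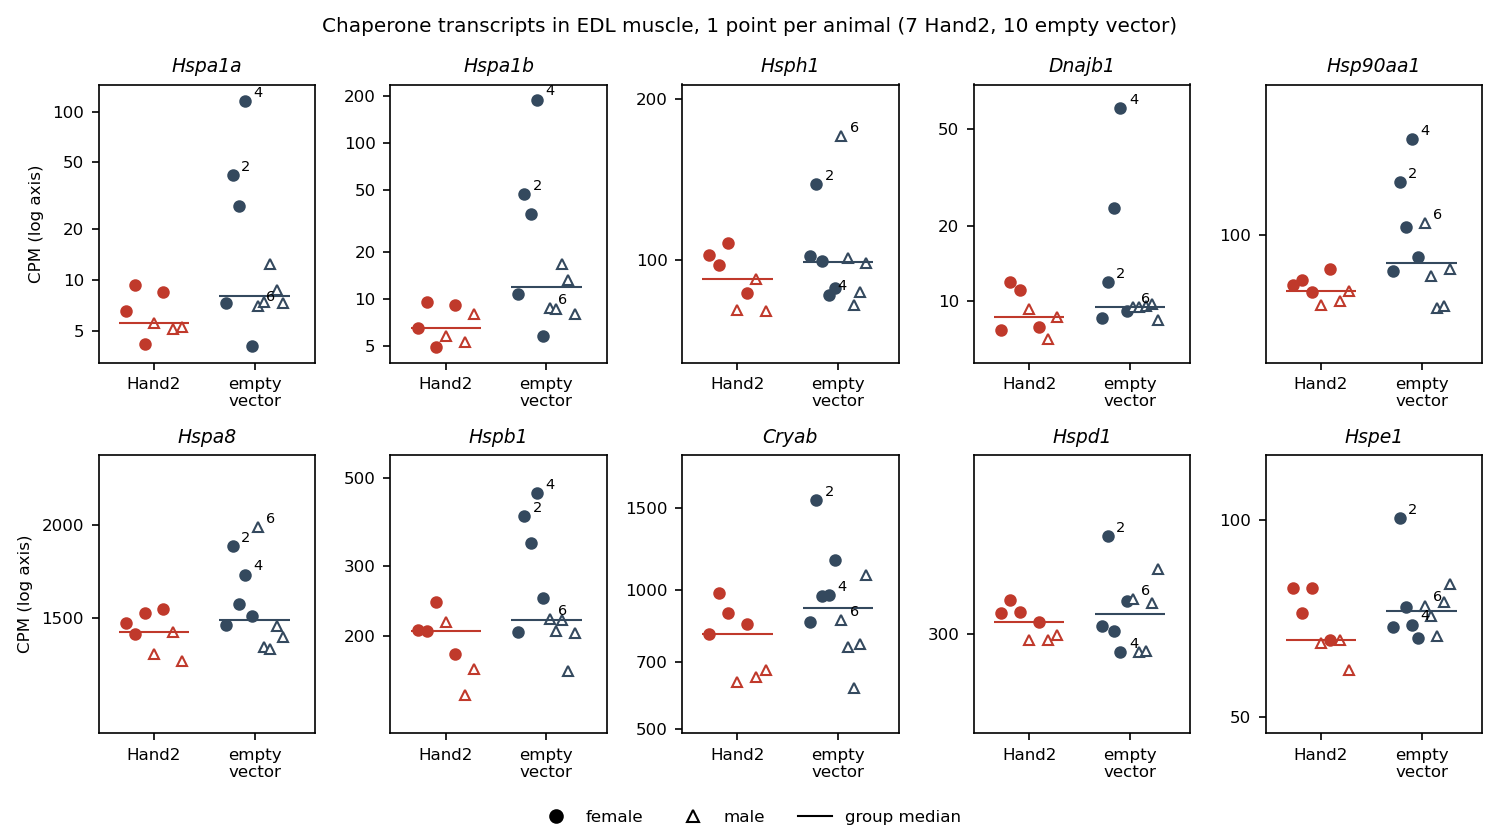
CPM (log axis) of each chaperone in each animal, Hand2 left and empty vector right, with filled circles for females, open triangles for males, a line at the group median and the numbers of empty-vector replicates 2, 4 and 6. Hspa1a and Hspa1b stay under 10 CPM in all 7 Hand2 animals. Their empty-vector medians are 8.02 and 12.0 CPM, and replicate 4 reaches 116 and 188.5 CPM.

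Among the partners of HSP70, Dnajb1 had 7.00, 8.59 and 11.9 CPM in the lowest, median and highest Hand2 animal, against 8.31, 9.43 and 60.4 CPM in empty-vector animals. The medians were close, and the gap came from empty-vector replicates 4 (60.4 CPM) and 3 (23.8 CPM), as the next animal of that group, at 11.86 CPM, was level with the highest Hand2 animal at 11.85 CPM. For Dnajb1 the log2 fold change was -0.75 ± 0.37 (SE; edgeR adjusted p = 0.921), and without replicate 4 it was -0.33 ± 0.19. Hsph1 had 80.1, 91.9 and 107 CPM in Hand2 animals and 82.0, 98.9 and 170 CPM in empty-vector animals. Its groups overlapped almost fully, apart from empty-vector replicates 6 (170 CPM) and 2 (139 CPM), and its log2 fold change was -0.20 ± 0.14 (SE; edgeR adjusted p = 0.921), or -0.09 without replicate 6. Hspa8 was steadier, with 1317, 1437 and 1545 CPM in Hand2 animals and 1366, 1490 and 1984 CPM in empty-vector animals. Its log2 fold change was -0.14 ± 0.07 (SE; edgeR adjusted p = 0.921), or -0.09 without replicate 6.

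Hsp90aa1 lay in a narrow range in Hand2 animals. Hand2 animals had 74.9, 79.3 and 86.9 CPM (lowest, median, highest) and empty-vector animals had 73.9, 89.0 and 148.5 CPM. Of the 10 empty-vector animals, 6 were above every Hand2 animal, of which replicate 10 (86.87 CPM) was level with the highest of them (86.86 CPM), and 2 empty-vector males were below every Hand2 animal. Its log2 fold change was -0.30 ± 0.10 (SE; edgeR adjusted p = 0.921).

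Both small heat-shock proteins were abundant in either group. Hspb1 had 142, 206 and 244.5 CPM in the lowest, median and highest Hand2 animal, against 163, 220 and 458 CPM in empty-vector animals. The 4 highest values, from 249 CPM up, all belonged to empty-vector females, and the remaining animals of both groups were mixed. The log2 fold change of Hspb1 was -0.45 ± 0.16 (SE; edgeR adjusted p = 0.921). Cryab had 631, 804.5 and 984 CPM in Hand2 animals, against 614, 914 and 1562 CPM in empty-vector animals. Here 3 of 10 empty-vector animals exceeded all Hand2 animals and the lowest animal of all was also an empty-vector one. Cryab had a log2 fold change of -0.32 ± 0.12 (SE; edgeR adjusted p = 0.921).

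The mitochondrial chaperonin pair had the smallest estimates of the 10. Hspd1 had 295, 310.5 and 330 CPM in Hand2 animals and 286, 317 and 394 CPM in empty-vector animals, and its log2 fold change was -0.06 ± 0.06 (SE; edgeR adjusted p = 0.935), with a 95% interval from -0.18 to 0.07. Hspe1 had 59.1, 65.5 and 78.9 CPM in Hand2 animals and 66.0, 72.6 and 101 CPM in empty-vector animals. The 4 lowest Hspe1 values of the 17 belonged to Hand2 animals, and its log2 fold change was -0.12 ± 0.08 (SE; edgeR adjusted p = 0.921). Without empty-vector replicate 2 the log2 fold change was -0.02 for Hspd1 and -0.06 for Hspe1, and without replicate 10 it was -0.03 for Hspd1. The ratio of the 2 transcripts, which share the element shown above, was 4.04 to 5.06 in Hand2 animals and 3.91 to 4.99 in empty-vector animals.

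**Figure D2:**
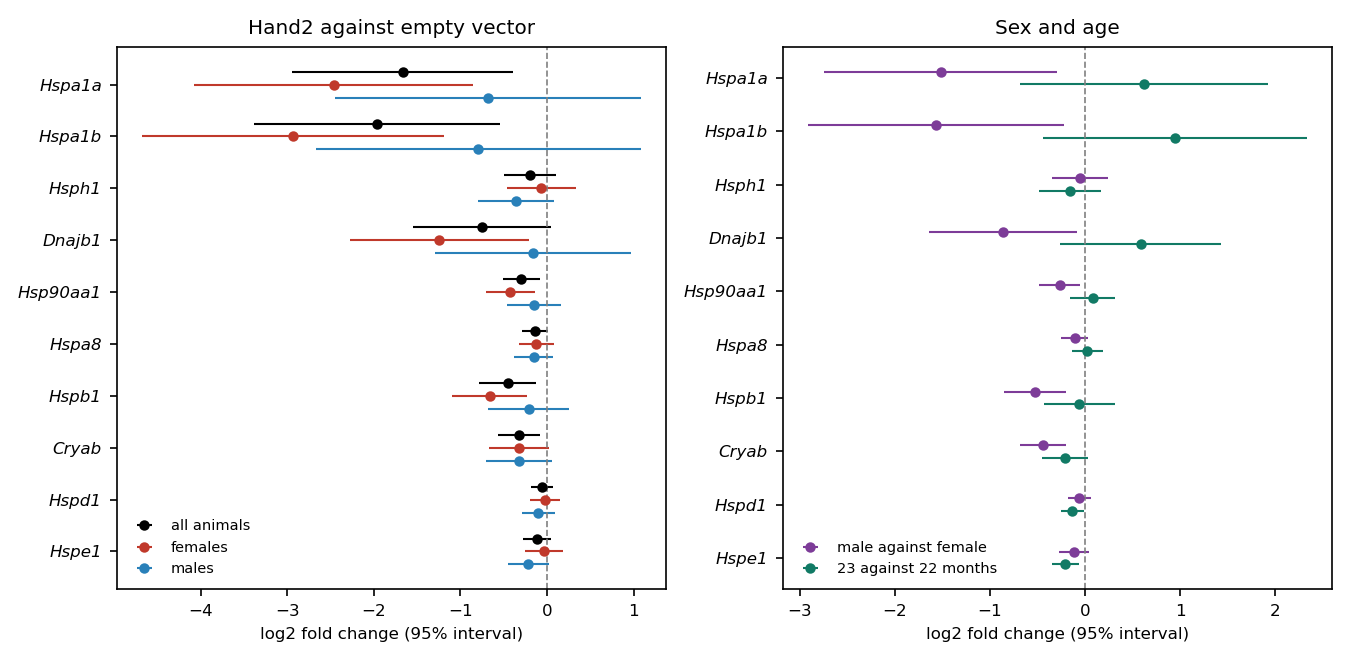
Log2 fold changes of the 10 chaperones with 95% intervals, for Hand2 against empty vector (left; all animals, females, males) and for male against female and 23 against 22 months (right). All points of the left panel lie below 0, and the intervals of Hspa1a and Hspa1b are the widest, with Hspa1b at -1.96 over all animals.

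Within the sexes, the estimates of Hspa1a, Hspa1b, Dnajb1, Hspb1 and Hsp90aa1 were further below 0 in females. Those of Hsph1 (-0.065 in females, -0.355 in males), Hspe1 (-0.035 and -0.214), Hspd1 (-0.018 and -0.1) and Hspa8 (-0.123 and -0.155) were further below 0 in males. Cryab was nearly equal in both. Among females, Hspa1b had 4.92 to 9.56 CPM with Hand2 (n = 4) and 5.83 to 188.5 CPM with the empty vector (n = 5), for a log2 fold change of -2.93 ± 0.81 (SE; edgeR adjusted p = 0.783). Hspa1a (-2.46), Dnajb1 (-1.24), Hspb1 (-0.66) and Hsp90aa1 (-0.42) also had unadjusted p-values under 0.05 and lower estimates, which makes 5 of 10 members, against 3.15% of all genes, or 5.9% in either direction. All 10 estimates were below 0, as were 51.6% of all genes, and no member had female groups without overlap, as 1.66% of genes did. None of the 10 was called, and 0 of 13965 genes were (0.0%). DESeq2 gave Hspb1 an adjusted p of 0.192 and Hspa1b one of 0.0544, and called 7 genes in all, none of them a member. Without empty-vector replicate 4 the female value was -1.71 for Hspa1b, -1.50 for Hspa1a and -0.48 for Dnajb1. Without the 3 empty-vector females of 23 months, which leaves 2, it was -1.95 for Hspa1b and -0.09 for Dnajb1. The remaining members were between -0.33 (Cryab) and -0.02 (Hspd1) in females.

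In males all 10 estimates were again below 0, as were 51.1% of all genes, and none had an unadjusted p under 0.05 in the shared fit (2.84% of all genes did) or an adjusted one (0.0%). For 3 members the male groups did not overlap, unlike the female ones. Hspa1a had 5.15, 5.29 and 5.59 CPM in the 3 Hand2 males, against 7.05, 7.30, 7.37, 8.68 and 12.5 CPM in the 5 empty-vector males. Hspa1b had 5.35, 5.83 and 8.04 CPM in Hand2 males, against 8.05, 8.71, 8.82, 13.2 and 16.8 CPM in empty-vector males, and Hspe1 had 59.1 to 65.5 CPM against 66.5 to 80.0 CPM. For these 3 of 10 members every Hand2 male was below every empty-vector male, for Hspa1b and Hspe1 only just. Over all genes, 2.64% showed groups that did not overlap in males. For Hspb1, Hsp90aa1 and Hspa8, 2, 3 and 2 of 5 empty-vector males were above every Hand2 male. Among females these counts were higher, at 4, 4 and 3 of 5. The log2 fold change of Hspa1a in males was -0.68 with an SE of 0.82 in the fit that shares 1 spread over both sexes, and of 0.20 with males fitted alone, where edgeR's adjusted p was 0.999. In that fit of males alone, 3 of 10 members had an unadjusted p under 0.05 and a lower estimate, against 1.09% of all genes.

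The sexes were not shown to differ in the effect of Hand2. For Hspa1b the male effect minus the female effect was 2.14 ± 1.14 on the log2 scale (SE; edgeR adjusted p = 0.9997, unadjusted p = 0.0826), and without empty-vector replicate 4 it was 0.92 ± 0.76. For Hspb1 it was 0.45 ± 0.30 (SE). The other 8 lay between -0.29 (Hsph1) and 1.78 (Hspa1a). None of the 10 had an unadjusted p under 0.05, against 3.39% of all genes, and 0.0% of genes were called.

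With the sexes pooled, the spread among animals was larger in the empty-vector group for each of the 10 chaperones, constitutive ones included. It was widest there for the Hspa1 pair. The median gene had a standard deviation of log2 CPM of 0.20 in Hand2 animals and 0.22 in empty-vector animals. The standard deviation of log2 CPM of Hspa1b was 0.38 in Hand2 animals, larger than in 75.1% of genes, and 1.54 in empty-vector animals, larger than in 99.6% of genes. Dnajb1 had 0.28 in Hand2 animals and 0.92 in empty-vector animals. Hspa8 had 0.09 in Hand2 animals and 0.19 in empty-vector animals. The smallest values of the 10 were those of Hspd1, with 0.06 in Hand2 animals and 0.15 in empty-vector animals, where 5.03% and 33.3% of genes varied less. Among males alone the order was reversed for Hspb1 (0.31 in Hand2 males, 0.18 in empty-vector males) and Dnajb1 (0.21 and 0.09). The spread was not tested, and the Hand2 group has fewer animals. Of the 10 chaperones, each had its highest animal in the empty-vector group, which holds 10 of the 17 animals. These were only 3 animals: replicate 4 for 5 members, replicate 2 for 3 and replicate 6 for 2. The share of all genes with a larger spread or their highest animal in that group was not computed, so neither count is set against one. Hand2 replicates 6 and 7, both males of 23 months, were above the 17-animal median for none of the 10.

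**Figure D3:**
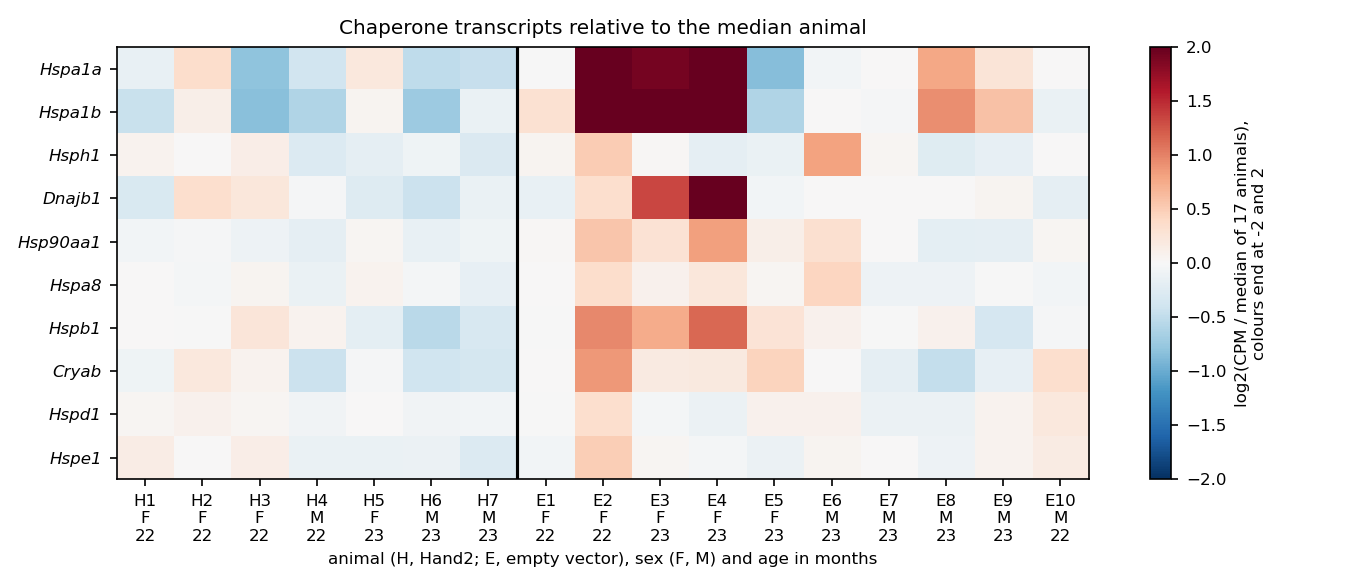
Log2 of each animal's CPM over the median of the 17 animals, with chaperones down the side and animals across (7 Hand2 left of the line, 10 empty vector right of it; sex and age under each), and colours that end at 2 in either direction. Empty-vector replicates 2, 3 and 4 are dark red for Hspa1a and Hspa1b, and replicate 6 is red for Hsph1 and not for Hspa1b.

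The 3 empty-vector animals with the highest values are described singly; they were chosen after their values were seen, so the following describes them without a test. Replicate 2, a female of 22 months, was among the 3 highest animals for all 10 members. Relative to the median animal it had 5.73 times the Hspa1a, 5.33 times the Hspa1b, 1.94 times the Hspb1, 1.83 times the Cryab, 1.41 times the Hspe1 and 1.27 times the Hspd1. It was also highest for 4 of 5 other small heat-shock protein genes of muscle (Hspb7 at 2.52 times and Hspb6 at 1.62 times the median) and for 12 of 31 co-chaperones and other HSF1-linked genes, including Hspa1l (2.32 times), Dnajb4 (2.16 times) and Bag3 (1.61 times), which links HSP70 to small heat-shock proteins. Its 27 immediate-early genes, which many stimuli switch on within minutes, summed to 1.27 times the median animal, with Atf3 at 4.31 times and Fos at 0.70 times the median. Among markers of other cell types, those of fibroblasts summed to 0.58 times, satellite cells 0.68 times, red cells 1.35 times, adipocytes 2.09 times and neutrophils (9.44 CPM in all) 3.76 times the median. Those of endothelium were at 1.32 times, macrophages 0.80 times, Schwann cells 0.79 times and lymphocytes 0.56 times. Neutrophil markers were also high in empty-vector replicate 5 (3.62 times) and Hand2 replicate 6 (5.33 times), whose Hspa1b was 5.83 and 5.35 CPM. The part of these markers in the chaperone values of replicate 2 was not tested.

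Replicate 4, a female of 23 months, had a narrower and steeper pattern. Hspa1b was 21.4 times, Hspa1a 15.9 times, Dnajb1 6.44 times, Hspb1 2.21 times and Hsp90aa1 1.76 times the median, while Hsph1 (0.88 times), Hspd1 (0.92 times) and Hspe1 (0.97 times) were slightly under it. Its 31 co-chaperone and HSF1-linked genes had a median of 1.02 times that of the median animal, with Dnajb4 highest at 1.65 times. The 27 immediate-early genes summed to 2.70 times the median animal (Atf3 14.4 times, Fos 6.67 times), and 4 measured red-cell genes summed to 4.03 times it. Replicate 3, also a female of 23 months, had 3.97 times the Hspa1b and 2.53 times the Dnajb1, with immediate-early genes at 4.94 times (Fos 28.3 times) and red-cell genes at 2.65 times. The part of handling, blood or nerve activity in these values was not tested. Replicate 5, the remaining empty-vector female of 23 months, had 5.83 CPM of Hspa1b, under the median, with red-cell genes at 2.59 times the median animal. Hand2 replicate 6 had 5.35 CPM of Hspa1b, also under the median, with red-cell genes at 3.825 times.

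Replicate 6, a male of 23 months, was high for Hsph1 (1.75 times the median), Hspa8 (1.35 times) and Hsp90aa1 (1.24 times), and at the median for Hspa1b (1.0 times) and Dnajb1 (1.0 times). Among co-chaperones it was highest for 6 of 31, including Hspa4l (1.64 times), Chordc1 (1.41 times) and Stip1 (1.38 times), which joins HSP70 to HSP90. It was highest for 11 of 16 chaperones of the endoplasmic reticulum, such as Hyou1 (1.56 times), Manf (1.5 times) and Hspa5 (1.33 times), and its 5 other small heat-shock protein genes lay between 0.60 times (Hspb7) and 1.27 times (Hspb8, the highest of the 17 animals) the median.

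**Figure D4:**
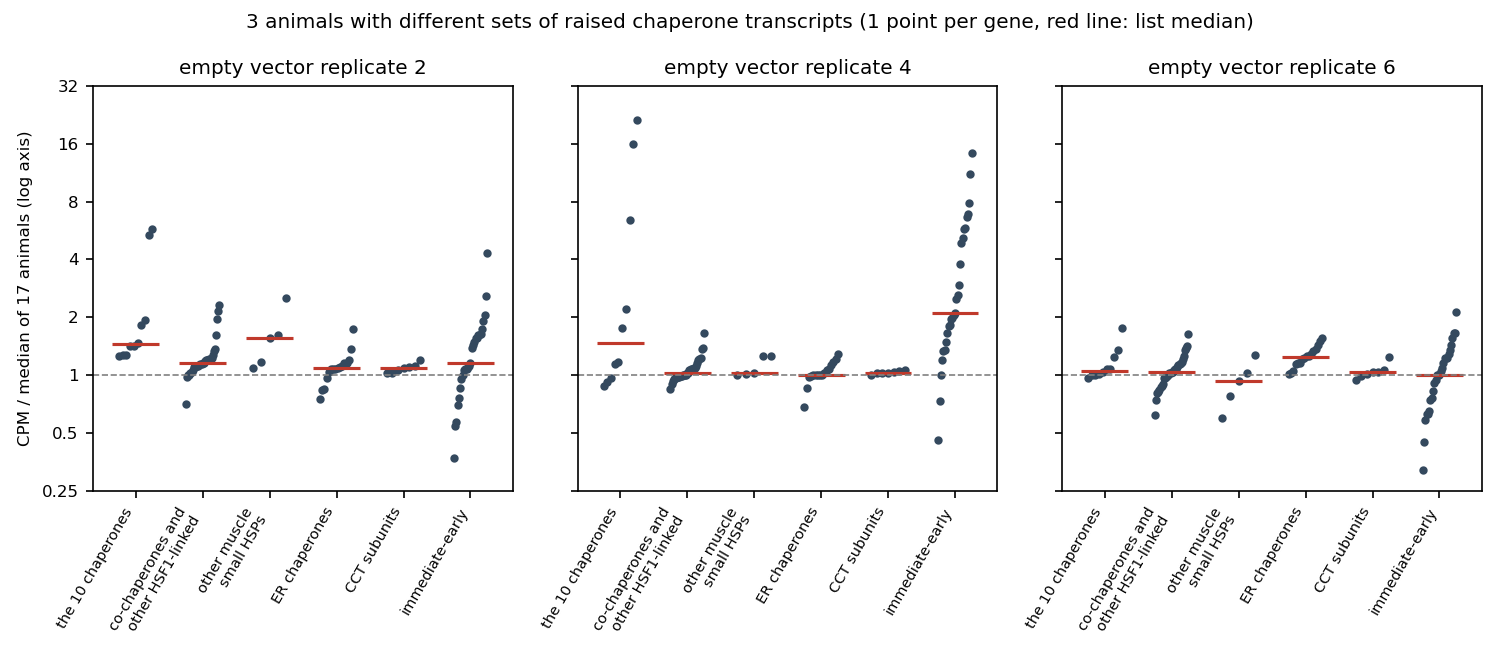
Ratio of CPM to the median of 17 animals (log axis) for each gene of 6 lists in empty-vector replicates 2, 4 and 6, with a red line at each list's median. In replicate 4 the members reach 21.4 and immediate-early genes 14.4, in replicate 2 the small heat-shock proteins have a median of 1.56, and in replicate 6 the ER chaperones have a median of 1.24.

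The wider network was tested in the same fit. None of the genes in the following lists passed edgeR's test in the comparison of vectors, in which 0.0% of genes did. Of 31 co-chaperones and HSF1-linked genes, 26 had lower estimates with Hand2, with a median log2 fold change of -0.05. The smallest p-values belonged to Hspbp1, an HSP70 nucleotide exchange factor (-0.16 ± 0.04), Dnajb2 (-0.15 ± 0.06) and Dnajb4 (-0.31 ± 0.14; all SE, edgeR adjusted p = 0.921). The 5 other small heat-shock protein genes were all below 0 with a median of -0.15, and 15 of 16 ER chaperones were below 0 with a median of -0.08. Of 12 mitochondrial chaperone and protease genes 8 were below 0 (median -0.01), of 7 tested subunits of the cytosolic chaperonin 5 were (median -0.03), and the 8th subunit, Cct6a, is listed at 0 in its 2 rows. Hsf1 itself was -0.12 ± 0.05 (SE; edgeR adjusted p = 0.921), the smallest p among 4 tested HSF genes and partners, of which 3 were below 0. Of the 27 immediate-early genes 23 were below 0 (median -0.30), with 25 below 0 in females (median -0.72) and 6 in males (median 0.15).

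Markers of other cell types, measured beside these values, did not pass the test either. All 8 measured macrophage markers had higher estimates with Hand2, with a median log2 fold change of 0.19, and summed to 128 to 187.5 CPM in Hand2 animals and 76.1 to 213 CPM in empty-vector animals. All 6 fibroblast markers were also above 0, and summed to 735 to 1342 CPM with Hand2 and 509 to 1139 CPM with the empty vector. The 4 measured red-cell genes summed to 307 to 2286 CPM in Hand2 animals and 280 to 2412 CPM in empty-vector animals, and their median log2 fold change was -0.94 in females and 1.58 in males. Of 6 endothelial markers 5 were below 0, and the T and B lymphocyte markers summed to at most 4.87 CPM in any animal. Their part in the chaperone values was not tested.

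Between the sexes, Cryab was the chaperone that passed the test, and it was lower in males. It had 614, 712 and 1075 CPM in the lowest, median and highest male (n = 8), against 804.5, 969 and 1562 CPM in females (n = 9). Of the 8 males 6 were below every female, and the exceptions were empty-vector replicates 10 and 6. The log2 fold change was -0.44 ± 0.11 (SE; edgeR adjusted p = 0.0335, vector as a term), in a comparison where 5.63% of all genes were called and 2.72% were called lower in males. The call is close to the threshold: it was lost with an age term (-0.38, edgeR adjusted p = 0.0674), without the 3 empty-vector females of 23 months (-0.50, edgeR adjusted p = 0.0800) and without any one of 9 single animals (empty-vector replicates 5, 7, 8 and 9 and Hand2 replicates 2, 3, 4, 6 and 7), where the adjusted p was at most 0.0691. In empty-vector animals alone the difference was -0.44 with an edgeR adjusted p of 0.309.

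Hspb1 was next, with 142, 205 and 221 CPM in males against 180, 244.5 and 458 CPM in females. Here 5 of 9 females were above every male and 3 of 8 males below every female. Its log2 fold change was -0.53 ± 0.15 (SE; edgeR adjusted p = 0.0547), and DESeq2 called it (adjusted p = 0.00704), as did edgeR with a stricter filter and without empty-vector replicate 1 or Hand2 replicate 4 or 5. All 10 members had lower estimates in males (49.9% of all genes did), and 6 had an unadjusted p under 0.05 and a lower estimate, against 11.0% of all genes. That count was 3 with limma-voom and with limma on the authors' values, 4 without empty-vector replicate 7 or 10, and 1 with 1 surrogate variable, where 6.87% of all genes met it. For Hspa1b, with 5.35 to 16.8 CPM in males and 4.92 to 188.5 CPM in females, the log2 fold change was -1.57 ± 0.63 (SE; edgeR adjusted p = 0.162), and it was -0.78 without empty-vector replicate 4. Hspa8 (-0.11), Hspe1 (-0.12), Hspd1 (-0.06) and Hsph1 (-0.05) had the smallest estimates, though Hspa8 was called without empty-vector replicate 6 (-0.18 ± 0.05, SE; edgeR adjusted p = 0.0455).

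Of the other chaperone lists and the immediate-early genes, those lower in males in that test were Cct2 (-0.18 ± 0.03, SE; edgeR adjusted p = 0.00382) and Cct8 of the cytosolic chaperonin, Canx (-0.18) and Dnajb11 of the ER, and the immediate-early genes Cyr61 (-1.04 ± 0.19, SE; edgeR adjusted p = 0.00481), Myc and Klf6. No gene of these lists was called higher in males, as 2.91% of all genes were. Of 4 adipocyte markers 3 were also called lower in males, namely Adipoq (-1.22), Plin1 (-1.29) and Lep (-1.73), and their part in the chaperone values was not tested. Among co-chaperones 27 of 31 had lower estimates in males and none was called.

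For age, 10 animals of 23 months were compared with 7 of 22 months with vector and sex as terms. Ages are uneven over the groups, with 1 Hand2 and 3 empty-vector females of 23 months, and 1 Hand2 and 1 empty-vector male of 22 months. No chaperone was called, nor was any of the 13965 genes (0.0%). The mitochondrial pair had the smallest p-values, both unadjusted under 0.05 with a lower estimate, as in 4.53% of all genes (8.97% in either direction). Hspe1 had 59.1, 67.9 and 74.9 CPM at 23 months against 65, 78.7 and 101 CPM at 22 months, for a log2 fold change of -0.21 ± 0.07 (SE; edgeR adjusted p = 0.488). Hspd1 had 286, 301 and 331 CPM at 23 months against 295, 319 and 394 CPM at 22 months, and -0.14 ± 0.06 (SE; edgeR adjusted p = 0.530). For both, the highest animal of 22 months was empty-vector replicate 2. Hspa1b was 0.95 ± 0.65 (SE; edgeR adjusted p = 0.676), and 0.09 without empty-vector replicate 4. The other 7 members lay between -0.21 and 0.62.

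Across the 17 animals, the genes outside the set whose levels most resembled those of 3 anchor chaperones were named by the highest Spearman correlation of log2 CPM. Since they were picked for that value, no p is given. For Hspa1b these were Atraid (rho = 0.82, Pearson's r = 0.50), Sec61g (rho = 0.77, r = 0.71) and Tnfrsf12a (rho = 0.77, r = 0.77), and without empty-vector replicates 2 and 4, the 2 animals farthest from the median, r was 0.68, 0.47 and 0.63. For Hsph1 they were Ccdc107 (rho = 0.85), Rab33b (rho = 0.84) and Raver1-fdx1l (rho = 0.83), with r from 0.74 to 0.85 without empty-vector replicates 2 and 6. For Hspd1 they were Slmo2 (rho = 0.87), Elp5 (rho = 0.87) and Edf1 (rho = 0.86), with r from 0.71 to 0.84 without empty-vector replicates 2 and 10. Among the members, the closest to Hspa1b was Hspa1a (rho = 0.94), which shares reads with it, and the next was Dnajb1 (rho = 0.61), while Hsph1 (rho = -0.02) and Hspd1 (rho = -0.04) had values near 0.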

How the data were processed

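Libraries from EDL RNA of 17 mice were made with an Illumina TruSeq v2 kit with mm10 as the genome, per the labels' protocols and the submitters' processing notes. The aligner, the counter and the use of strand were not stated. The authors deposited estimated counts per gene (25.5% to 29.3% of values whole within 0.001) and normalized log2 values, used here only as an alternative.

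Counts were rounded to whole numbers. Genes kept by edgeR's filterByExpr over 4 vector-by-sex groups (13965) were scaled by TMM. In R 4.3.3, edgeR 4.0.16 gave robust quasi-likelihood F tests, adjusted by Benjamini-Hochberg at 5%. Models had vector and sex, the 4 groups, or vector, sex and age. Each SE was obtained from the log2 fold change and its F value, with 95% intervals. They and the floor of 3 counts cover counts and animals only, as libraries carried no molecular identifiers. No 2 libraries agreed within sampling noise (lowest mean chi-square 7.15 per gene). The procedure was also run on counts simulated from the spread fitted to these data, in which single extreme animals were not built in.

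Replicate numbers follow accession order. All 10 members are named. Up to 3 genes per other list were named by smallest p in a comparison, and genes named for single animals were chosen after their values were seen. Members, lists and tests were chosen with earlier results of these data known. Exon lengths come from GENCODE vM21 and promoters from RefSeq. Alternatives were DESeq2 1.42.0, limma 3.58.1 (voom with quality weights, or on the authors' log2 values), other scalings, no or a stricter filter (1 CPM in 7 animals), the Hspa1 pair summed, an age term, no sex term, 1 surrogate variable (sva 3.50.0), parts of the animals, and leaving out each animal.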

Additional observations from a re-analysis of the deposited data

Results flagged for a closer look

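Within each group and each vector-by-sex group of 4 to 10 animals, a value whose gap to its neighbour exceeds Dixon's 95% limit for the range of the group is listed. For values with a normal distribution, chance gives about 1 in 20 of such groups, and 50 were tested. The limit was applied to CPM and not to log2 CPM, and high values stand further apart without logs. The groups also overlap, so the number that chance gives here is not known. Empty-vector replicate 4 was farthest from the other empty-vector animals for Hspa1a (116 CPM, next 41.8), Hspa1b (188.5 CPM, next 47.0, also among empty-vector females) and Dnajb1 (60.4 CPM, next 23.8). Among empty-vector males, replicate 6 stood apart for Hsph1 (170 CPM, next 100.5) and Hspa8 (1984 CPM, next 1466), and replicate 10 was apart at the low end for Dnajb1 (8.31 CPM, next 9.38), in a group that otherwise lay within 9.38 to 9.71 CPM. Empty-vector replicate 2 stood apart for Hspe1 (101 CPM, next 80.0 among all empty-vector animals and 73.8 among the females). No value of a Hand2 animal was apart in this way, where groups of 7 and 4 were tested.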

How the results depend on the processing

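No paired analysis was possible because replicate numbers follow accession order and mark no shared animal, litter or batch. Of 1326 gene values recomputed, 1293 kept their direction and their side of the threshold. These values cover every member between vectors, within each sex and between sexes. For the Hand2 effect between sexes they cover only Hspa1b and Hspb1, and for ages only Hspa1b, Hspd1 and Hspe1. In the comparisons of vectors (over all animals and within each sex), of the Hand2 effect between sexes and of ages, no chaperone was called under any setting. Between sexes the count of called chaperones, 1, was 2 with DESeq2 and with the stricter filter, and 0 with limma on the authors' values, no filter, without the 3 empty-vector females of 23 months, 1 surrogate variable, an age term and empty-vector animals alone; it was 0 to 2 with single animals left out. Called genes between sexes, 786 (406 higher, 380 lower in males), were 1276 with DESeq2, 118 in empty-vector animals alone, 291 without those 3 females and 303 with 1 surrogate variable, and 514 higher and 270 lower with upper-quartile scaling. No scaling moved the median of all genes by over 0.1. DESeq2 called 1 gene between vectors, 7 in females, 1 in males and 7 between ages, and leaving out single animals gave at most 1, 1, 2 and 9.

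Directions near 0 turned. In females with Hand2, Hspd1 was 0.034 with limma-voom and 0.018 with library size alone, and Hspe1 0.023 and 0.003, and with single animals left out Hsph1 ranged from -0.122 to 0.066, Hspd1 from -0.060 to 0.062 and Hspe1 from -0.081 to 0.088. Dnajb1 was 0.038 between vectors in animals of 22 months. Hsph1 between sexes was 0.004 with an age term, 0.063 in empty-vector animals alone and -0.190 to 0.014 with single animals left out. Members left out of the 1326 values turned too. Between ages, 5 members were below 0, but 7 without empty-vector replicate 4 and 4 without replicate 2. For the Hand2 effect between sexes, 4 were below 0, but 3 without empty-vector replicate 1 and 5 without replicate 2. The cause was not tested.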
